A study of Canis lupus familiaris with 4 samples.

Results

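The genes described here are immediate early genes, ETS transcription factors and feedback inhibitors of the ERK pathway in canine glioblastoma cell lines. They were chosen by name (EGR1, FOS, FOSL1, MYC, NR4A2, ETV1, ETV5, DUSP5, DUSP6 and SPRY2), and every probe set annotated with one of these symbols alone was taken. The array annotation held 9 of the 10 genes, in 14 probe sets, out of 15115 genes with a symbol. EGR1, FOS, ETV1, ETV5 and DUSP6 had 2 probe sets each, the other 4 genes had 1, and no probe set was listed under SPRY2. J3T-2A is the line J3T-2 overexpressing annexin A2 (ANXA2), J3T-1shA is the line J3T-1 with ANXA2 silenced, and J3T-1 and J3T-2 are lines from the same parental canine cells, labelled as high and low in ANXA2. All were grown in serum-containing medium and each was measured on 1 Affymetrix canine array. The sources used here name no vector or scrambled control array and do not say whether J3T-2A and J3T-1shA are single clones. An effect of ANXA2 and an effect of establishing the modified lines therefore cannot be told apart.

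ERK is the last kinase of the RAS-RAF-MEK cascade, which carries signals from growth factor receptors to the nucleus. Its first transcriptional targets are immediate early genes, which are switched on briefly without new protein synthesis and which serum also induces. ERK output also includes ETS factors of the PEA3 group and inhibitors that act back on the cascade, the dual-specificity phosphatases and the Sprouty proteins.

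Values are MAS 5.0 signals on a linear scale, scaled by the authors to one trimmed mean per array. A gene counted as measured in a pair where the brighter array reached a signal of 250, and as different where its brightest probe set was over 2-fold apart. With 1 array per line there was no replicate and no test, so every ratio describes 2 arrays and not 2 conditions. The only error in the data was the spread between 2 probe sets of a gene, taken over genes with both probe sets measured. Among genes with a mean signal under 1000 this spread had an SD of 0.39 (log2, 1289 genes) for the ratio J3T-2A over J3T-2, and of 0.45 (1330 genes) for J3T-1shA over J3T-1. For brighter genes it was 0.23 (2427 genes) and 0.31 (2430 genes). It does not cover variation between cultures.

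The ANXA2 signals did not separate the arrays by their ANXA2 labels. The brightest ANXA2 probe set gave 28775 on the array labelled J3T-2A, against 30103 on that of J3T-2, and 30093 on that labelled J3T-1shA and 28656 on that labelled J3T-1. The second gave 35651 against 30311 and 25725 against 24128. These signals are near the highest of any probe set on an array (44435 to 46646), and compression of differences at this brightness was not tested. The cytokine receptor gene OSMR had 203.2 on the array labelled J3T-2A, against 200.8 on that of J3T-2, both under the limit, and 115.5 on that labelled J3T-1shA, against 391.5 on that of J3T-1. Directions are therefore between arrays as labelled, and a line's name below stands for the array that carries its label. Of 8 glioma markers, 7 were on the array. VIM, CD44 and SOX2 were over the limit on all 4 arrays, whereas the astrocyte markers GFAP (8.2 to 21.6) and S100B (12.7 to 33.6) were far under it. NES exceeded it in J3T-1shA alone, at 345.9 against 150.2 in J3T-1, 2.30-fold higher. PDGFRA exceeded it in J3T-2A (286.5) and J3T-2 (352.7), but not in J3T-1shA (180.7) or J3T-1 (88.9). Its signal was 3.97-fold lower in J3T-1 than in J3T-2. Summed signals of these 7 markers ran from 49783 (J3T-1shA) to 50390 (J3T-2). VIM alone gave 41177 to 43058 of each sum, so the sums say little about the other markers. Of other cell types, 4 of 5 fibroblast and pericyte markers reached the limit on some array, with summed signals of 42033 on the array labelled J3T-2A, 30247 on J3T-2, 50295 on J3T-1shA and 17989 on J3T-1. For J3T-1shA over J3T-1, ACTA2 was 24.2-fold higher (13625 against 562.2), COL1A1 8.36-fold and DCN 3.01-fold, LUM was within 2-fold and PDGFRB was under the limit on every array. For J3T-2A over J3T-2, COL1A1 was 3.13-fold higher and the others were within 2-fold or under the limit. Of 5 endothelial markers PECAM1 alone reached it, on the array labelled J3T-2 (773.2), and its signal was 1.0 on that labelled J3T-1shA. The endothelial sums were 303.2, 1007, 273.9 and 206 in the same order of arrays. The leucocyte and epithelial lists each had 1 gene over the limit, and their sums were 480.1 to 848 and 394.8 to 1128. The part of other cell types in the results was not tested.

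The array labelled J3T-1shA had the lowest signal of 7 of the 9 genes, the exceptions being FOSL1 and ETV5. Among all 7241 genes with a signal of 250 or more on any array, 28.1% were lowest there. The array labelled J3T-2 had the highest signal of 5 genes (EGR1, FOS, NR4A2, ETV1 and ETV5), where 26.2% of all genes were highest. The brightest probe sets of EGR1, FOS, NR4A2 and ETV1 ran in one order, J3T-2, J3T-1, J3T-2A and then J3T-1shA.

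**Figure D1:**
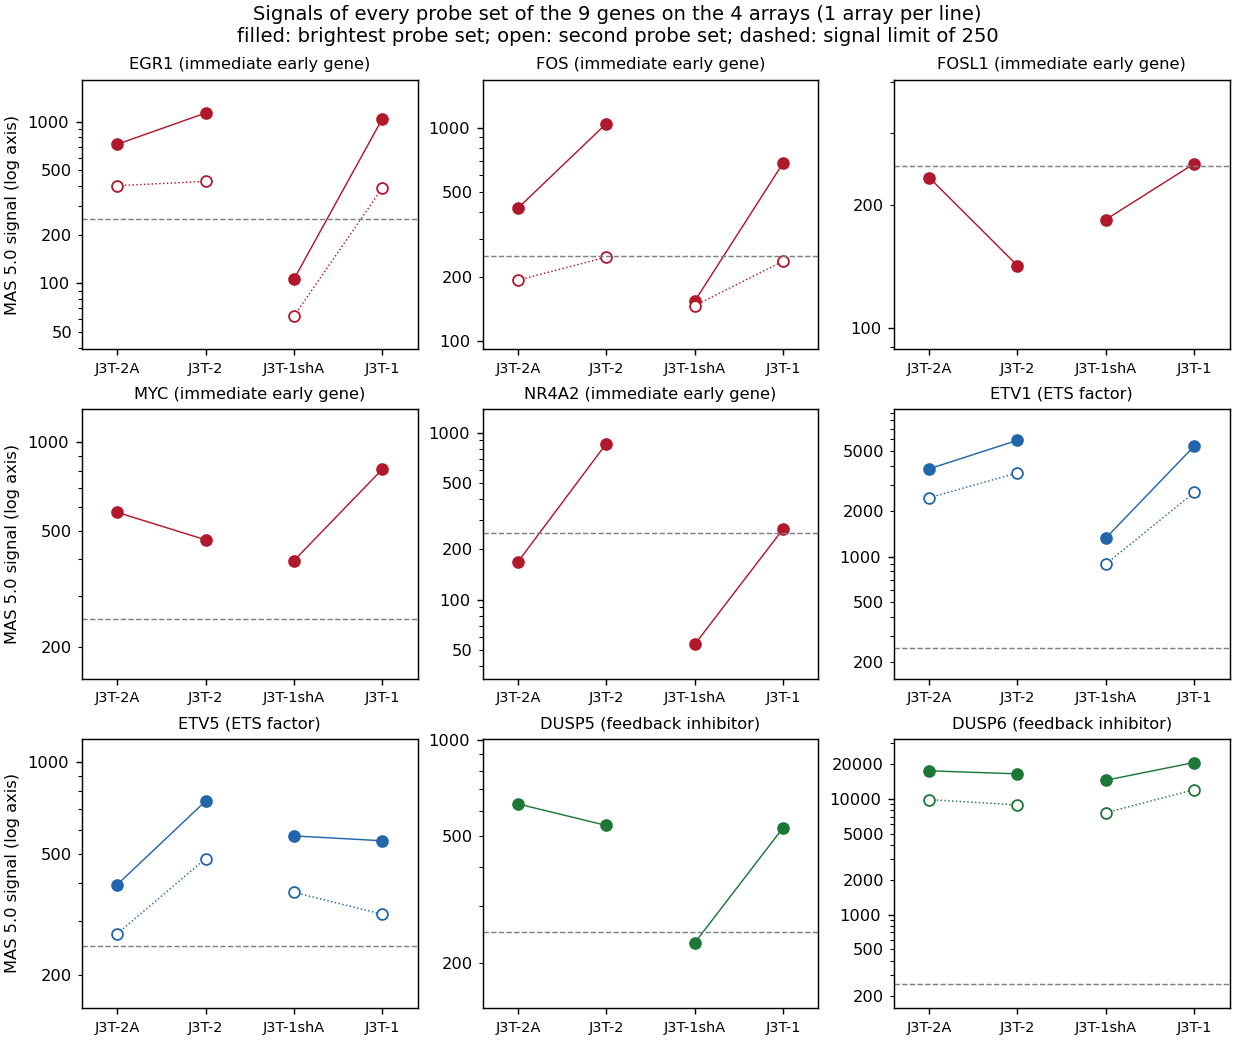
MAS 5.0 signal (log axis) of all 14 probe sets of the 9 genes on the 4 arrays, 1 array per line, with lines joining each modified line to its parent and a dashed line at the signal limit of 250. Every probe set of EGR1, FOS, NR4A2, ETV1, MYC, DUSP5 and DUSP6 is lowest on the array labelled J3T-1shA, those of ETV5 on that labelled J3T-2A and that of FOSL1 on that labelled J3T-2.

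EGR1, a zinc finger transcription factor and a classical immediate early gene, was the widest apart of the 9 genes between the J3T-1 lines. Its brightest probe set had signals of 725.7 on the array labelled J3T-2A, 1133 on J3T-2, 106 on J3T-1shA and 1044 on J3T-1. The second had 402.4, 427.8, 62.6 and 388.6. The arrays labelled J3T-2A, J3T-2 and J3T-1 were thus over the limit in both probe sets and that labelled J3T-1shA under it in both. J3T-1shA was 9.84-fold lower than J3T-1 by the first (log2 ratio -3.30) and 6.21-fold lower by the second (-2.63). The ratio was the 15th lowest of 6944 measured genes. For J3T-2A over J3T-2 the log2 ratio was -0.64 by the first probe set and -0.09 by the second, a gap between probe sets that lies within 2 SD of their spread.

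FOS encodes the AP-1 subunit whose transcription ERK drives through the serum response element. Its brightest probe set had 418.9 on the array labelled J3T-2A, against 1045 on that of J3T-2, which is 2.49-fold lower (log2 ratio -1.32). It had 153.3 on the array labelled J3T-1shA, against 681.6 on that of J3T-1, 4.45-fold lower (-2.15). The lowest and highest arrays were thus the ones labelled J3T-1shA and J3T-2. The second FOS probe set was under the limit on every array, with 192.5, 246.7, 146.1 and 236.2 in the same order. It kept that order of arrays but with a much narrower range, and its log2 ratios were -0.36 for J3T-2A over J3T-2 and -0.69 for J3T-1shA over J3T-1. The probe sets differed by more than 2 SD of the spread given above in both comparisons. That spread comes only from genes with both probe sets measured, so it does not cover the second FOS probe set.

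NR4A2, an orphan nuclear receptor induced by ERK and by cyclic AMP through CREB, had a log2 ratio of -3.99 for J3T-1shA over J3T-2. With a pseudocount of 80 this ratio was -2.81, close to the -2.71 of EGR1. Its single probe set had 168.5 on the array labelled J3T-2A, against 859.8 on that of J3T-2. It had 54 on the array labelled J3T-1shA, against 264.9 on that of J3T-1. Both modified lines were under the limit and both parents over it, so the sizes of these ratios rest on dim signals. The log2 ratios were -2.35 for J3T-2A over J3T-2, the 18th lowest of 6860 genes, and -2.29 for J3T-1shA over J3T-1. NR4A2 was also the only one of the 9 genes over 2-fold apart between the parents, at -1.70 for J3T-1 over J3T-2.

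MYC, the growth-promoting transcription factor, was over the limit on all arrays. It had 577.1 on the array labelled J3T-2A, against 465 on that of J3T-2, a log2 ratio of 0.31. It had 394.6 on the array labelled J3T-1shA, against 809.6 on that of J3T-1, a log2 ratio of -1.04, barely past 2-fold. FOSL1, an AP-1 subunit that is induced later than FOS and whose protein ERK stabilizes, was dim, at 233.8, 142.4, 184.6 and 252.8 in the order J3T-2A, J3T-2, J3T-1shA, J3T-1. Only the array labelled J3T-1 reached the limit, and no pair was past 2-fold. In contrast to FOS, its lowest array was that labelled J3T-2.

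The PEA3-group ETS factors ETV1 and ETV5 differed in pattern. ETV1 had 3824 on the array labelled J3T-2A, against 5911 on that of J3T-2, and 1332 on that labelled J3T-1shA, against 5413 on that of J3T-1. Its second probe set had 2463 and 3597, and 896.1 and 2668. All 8 values were over the limit, and the array labelled J3T-1shA was lowest in both probe sets. J3T-1shA over J3T-1 was -2.02 (4.07-fold lower) by the first and -1.57 (2.98-fold) by the second, and J3T-2A over J3T-2 was -0.63 and -0.55. Of the 6 genes past 2-fold for J3T-1shA over J3T-1, ETV1 and MYC alone were over the limit on both arrays.

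ETV5 had 395.9 on the array labelled J3T-2A, against 743.2 on that of J3T-2, and its second probe set had 273.4 and 481.4. The log2 ratios of -0.91 and -0.82 stayed just within 2-fold. It had 572 on the array labelled J3T-1shA, against 551.3 on that of J3T-1, log2 ratios of 0.05 and, by the second probe set, 0.24. ETV5 was the only one of the 9 genes not lower on the array labelled J3T-1shA than on that labelled J3T-1.

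DUSP5 and DUSP6 encode phosphatases that dephosphorylate ERK, DUSP5 in the nucleus and DUSP6 in the cytoplasm. DUSP5 had 629.4 on the array labelled J3T-2A, against 538.6 on that of J3T-2, a log2 ratio of 0.22. It had 230.5 on the array labelled J3T-1shA, just under the limit, against 529.6 on that of J3T-1, 2.30-fold lower (-1.20). The other 3 arrays lay close together.

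DUSP6 was within 2-fold in all 6 pairs, with 17388 on the array labelled J3T-2A, against 16374 on that of J3T-2, and 14419 on that labelled J3T-1shA, against 20509 on that of J3T-1. Its second probe set had 9820, 8824, 7557 and 11969. The log2 ratio for J3T-1shA over J3T-1 was -0.51 by the first and -0.66 by the second, the same direction as DUSP5. For J3T-2A over J3T-2 it was 0.09 and 0.15. At signals this high, compression of differences was not tested.

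**Figure D2:**
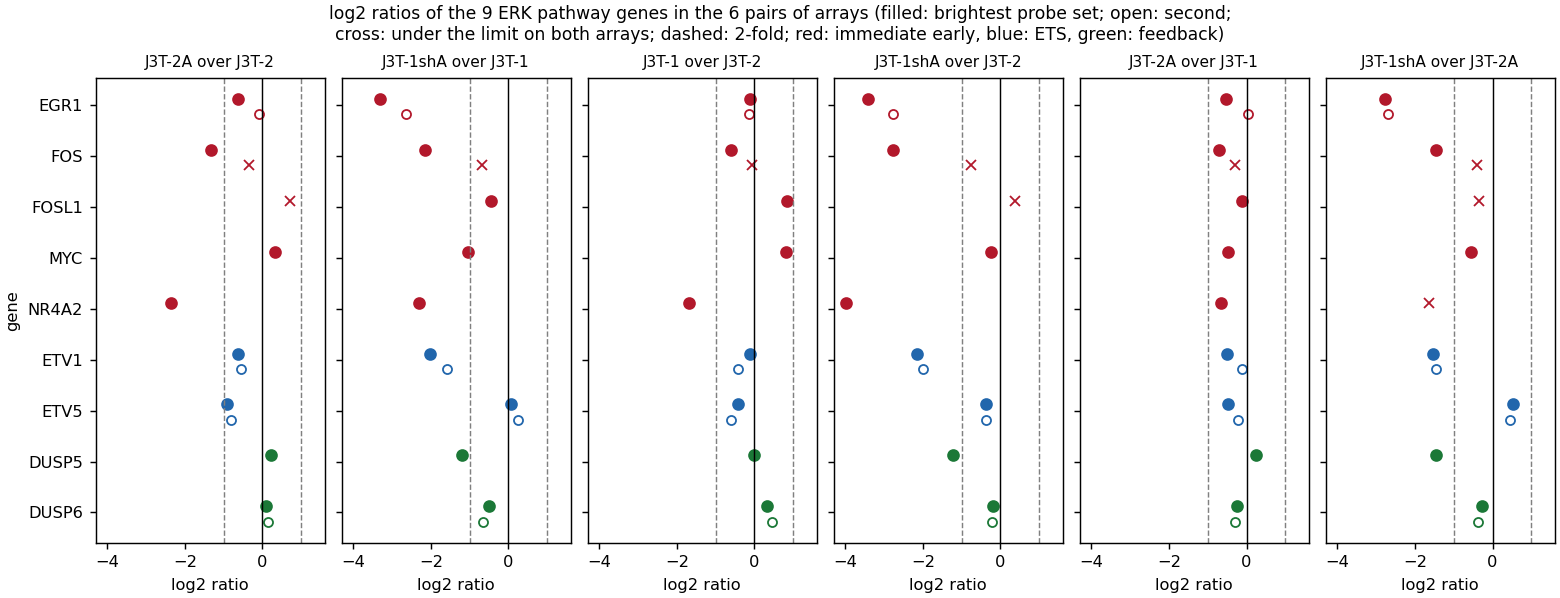
log2 ratio (x axis) of each gene (rows) in the 6 pairs of arrays, 1 array per line, with filled points for the brightest probe set, open points for the second, crosses where both arrays were under the limit and dashed lines at 2-fold. In J3T-1shA over J3T-1 the filled points for EGR1, NR4A2, FOS and ETV1 lie between -3.30 and -2.02. The second probe sets of EGR1, ETV1 and FOS lie at -2.63, -1.57 and -0.69, that of FOS as a cross. In J3T-2A over J3T-2 only the filled points for NR4A2 and FOS lie beyond 2-fold.

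By role, the array labelled J3T-1shA was over 2-fold lower than that labelled J3T-1 for 4 of 5 immediate early genes, 1 of 2 ETS factors and 1 of 2 phosphatases, and over 2-fold higher for none. That is 6 of 9 genes, where 3.8% of the 6944 measured genes were over 2-fold lower and 4.26% higher. The median log2 ratio was -2.15 for the immediate early genes, -0.99 for the ETS factors and -0.85 for the phosphatases, and -0.03 over all measured genes. On the J3T-1shA array EGR1, FOS, NR4A2 and DUSP5 were under the limit, so the size of their ratios rests on dim signals. With a pseudocount of 80 added to every signal the ratios were -2.59, -1.71, -1.36 and -0.97, MYC was at -0.91, and 4 of the 9 genes were past 2-fold. The genes were chosen with these ratios known, so the count is no independent evidence.

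For J3T-2A over J3T-2, 2 of 8 measured genes (FOS and NR4A2) were over 2-fold lower and none was higher, where 2.1% of 6860 genes were over 2-fold lower and 1.69% higher. FOSL1 was not measured there. The median was -0.64 over the 8 genes and 0.00 over all measured genes. Immediate early genes had a median of -0.98 (4 genes) and ETS factors of -0.77, while both phosphatases were slightly above 0 (median 0.16). With each gene taken as the median of its probe sets, FOS was at -0.84 and NR4A2 alone was past 2-fold.

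**Figure D3:**
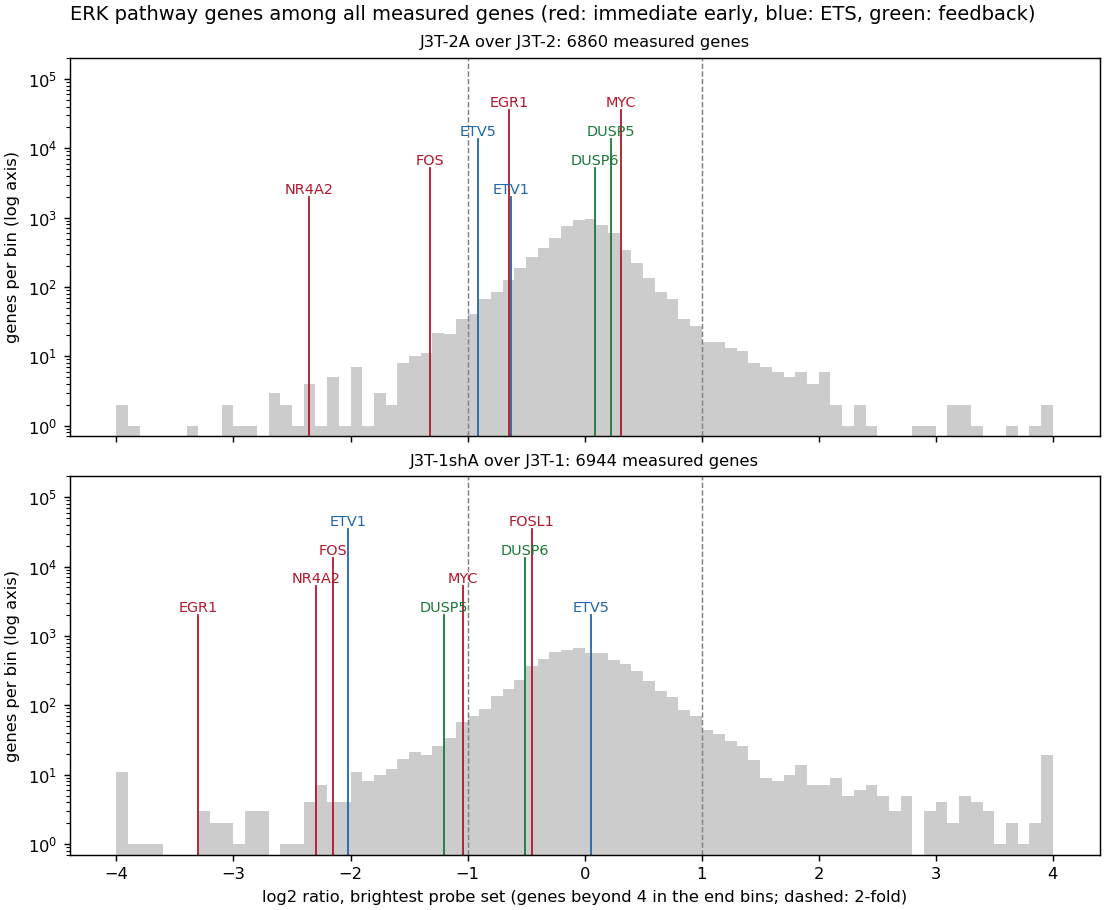
Distribution of the log2 ratios of all measured genes (grey bars, log axis for genes per bin) for J3T-2A over J3T-2 (upper) and J3T-1shA over J3T-1 (lower), with the measured ERK pathway genes as coloured lines and dashed lines at 2-fold. In J3T-1shA over J3T-1, 8 of the 9 genes lie below 0 and ETV5 is at 0.05, and 3 of 8 lie above 0 in J3T-2A over J3T-2.

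These comparisons share no array, and FOS and NR4A2 were over 2-fold lower in both modified lines than in their parents. In all, 23 of 6563 genes measured in both comparisons were so (0.35%). NR4A2 was measured only through the parents in both comparisons, and FOS only through the parent in J3T-1shA over J3T-1. With each gene taken as the median of its probe sets, FOS was within 2-fold for J3T-2A over J3T-2 (-0.84). ANXA2 is labelled as raised in one modified line and silenced in the other, so taken by ANXA2 state the ratios of FOS and NR4A2 ran in opposite directions. EGR1 and ETV1 were below 0 in both comparisons as well, but within 2-fold in J3T-2A over J3T-2.

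The remaining pairs reuse the same arrays, and only 3 of the 6 ratios of a gene are independent. Between the parents, J3T-1 over J3T-2, 1 of 9 genes (NR4A2) was over 2-fold lower, and none was higher, where 4.05% of all measured genes were lower and 2.94% higher. EGR1, ETV1 and DUSP5 were at -0.12, -0.13 and -0.02. FOSL1 and MYC were at 0.83 and 0.80. Between the lines labelled ANXA2 low, J3T-1shA over J3T-2, 5 of 8 measured genes were over 2-fold lower. None was higher (all genes 5.31% lower and 4.39% higher). NR4A2 was at -3.99, EGR1 at -3.42, FOS at -2.77, ETV1 at -2.15 and DUSP5 at -1.22. Of these, all but ETV1 were under the limit on the J3T-1shA array and were measured only through J3T-2. The second FOS probe set, under the limit on both arrays, was at -0.76. Between the lines labelled ANXA2 high, J3T-2A over J3T-1, none of the 9 was past 2-fold in either direction (all genes 1.94% lower and 2.72% higher), and the ratios ran from -0.70 for FOS to 0.25 for DUSP5. For J3T-1shA over J3T-2A, EGR1, FOS, ETV1 and DUSP5, 4 of 7 measured genes, were over 2-fold lower. None was higher (all genes 3.11% lower and 2.66% higher), and ETV5 was at 0.53. EGR1, FOS and DUSP5 were measured there only through J3T-2A, and the second FOS probe set was at -0.40.

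Ordered by signal, most neighbouring arrays of a gene lay within 2 SD of the spread between probe sets. The gap above the array labelled J3T-1shA was wider than that for EGR1 (log2 2.78), ETV1 (1.52), FOS (1.45) and DUSP5 (1.20), each with 1 array of the gap or both over the limit. Among neighbours with a signal over the limit, the only other such gap was that of NR4A2 between J3T-1 and J3T-2. Its lowest arrays, labelled J3T-2A and J3T-1shA, were both under the limit and were not compared. No neighbours of FOSL1, MYC, ETV5 or DUSP6 were that far apart. All these gaps are by the brightest probe set. The second FOS probe set, under the limit on every array, was at only -0.40 for J3T-1shA over J3T-2A.

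Of the cascade itself, 11 of 17 genes on the array (RAS, RAF and MEK family members, adaptors, GTPase regulators and ribosomal S6 kinases) were measured in each comparison and none was past 2-fold in either. Their median was 0.11 for J3T-2A over J3T-2 and -0.43 for J3T-1shA over J3T-1, with 7 of 11 below 0 in the second. The MEK gene MAP2K1 had 1510 on the array labelled J3T-1shA, against 2153 on that of J3T-1, a log2 ratio of -0.51. No measured gene for serum response factor or its ternary complex partners was past 2-fold (medians -0.07 over 4 genes and -0.11 over 4 genes), and SRF had 652.9 on the array labelled J3T-1shA, against 588.1 on that of J3T-1.

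Apart from KLF4 and CCN1, the other AP-1 and immediate early genes that were measured lay within 2-fold in both comparisons. The list held 22 genes, 18 of them on the array. FOSB, JUNB, EGR2, EGR3, EGR4, NR4A1 and ATF3 were under the limit in both comparisons, so the medians do not cover them. Of 11 measured for J3T-1shA over J3T-1, KLF4 was over 2-fold lower, none was higher and the median was 0.01. KLF4, a zinc finger factor of growth control, had 935.1 on the array labelled J3T-2A against 1945 on J3T-2 (-1.06). It had 161.9 on J3T-1shA, under the limit, against 775.1 on J3T-1 (-2.26), so KLF4 was measured there only through J3T-1. Its second probe set was under the limit on all arrays, and its ratio for J3T-2A over J3T-2 ran the other way (1.22). JUN, the dimer partner of FOS, had 6071 on the array labelled J3T-2A, against 6067 on that of J3T-2, and 4926 on that labelled J3T-1shA, against 4579 on that of J3T-1. IER2 had log2 ratios of 0.25 and -0.41 in the same comparisons. For J3T-2A over J3T-2, CCN1, a secreted matrix protein gene, was 2.33-fold higher and KLF4 2.08-fold lower of 10 measured genes (median 0.02). CCN1 had 8776 on the array labelled J3T-2A, against 3764 on that of J3T-2, and 22960 on that labelled J3T-1shA, against 17806 on that of J3T-1. For J3T-1 over J3T-2 it was 4.73-fold higher and KLF4 2.51-fold lower. IER3, a stress and survival gene, was within 2-fold in both comparisons, but had 2398 on the array labelled J3T-1, against 6031 on that of J3T-2, 2.52-fold lower.

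Of 4 other ETS factors measured, including the third PEA3-group member ETV4 (-0.46 for J3T-2A over J3T-2 and -0.53 for J3T-1shA over J3T-1), none was past 2-fold, with medians of -0.07 and -0.29. Of the other phosphatase, Sprouty and Spred genes that were measured, DUSP14 alone was past 2-fold in J3T-2A over J3T-2 or J3T-1shA over J3T-1. It had 2954 on the array labelled J3T-1shA, against 1199 on that of J3T-1, 2.46-fold higher and 2.91-fold by its second probe set. This is the opposite direction to DUSP5. The medians of these genes were 0.03 (7 measured, J3T-2A over J3T-2) and -0.04 (6 measured, J3T-1shA over J3T-1). This list held 18 genes, 15 of them on the array. DUSP7, DUSP8, DUSP9, DUSP10, SPRY4, SPRED2, SPRED3 and RASA2 were under the limit in both comparisons, so the medians do not cover them. SPRY1, a Sprouty gene on the array, had 0.26 and -0.48. ERRFI1, a feedback inhibitor of the EGF receptor, had 10911 on the array labelled J3T-1shA, against 19819 on that of J3T-1 (-0.86), and was over 2-fold lower for J3T-1shA over J3T-2A (-1.15).

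Among delayed ERK targets, HMGA1, a chromatin architectural factor, had 2147 on the array labelled J3T-1shA, against 7637 on that of J3T-1, 3.56-fold lower. The receptor gene EPHA2 was 2.03-fold lower there, at 323.1 against 654.6. PHLDA1 was at -0.91, with 225.5 on J3T-1shA, under the limit. Of 14 listed genes on the array, 7 were measured for J3T-1shA over J3T-1. Of these, 2 were over 2-fold lower and none was higher, with a median of -0.31. For J3T-2A over J3T-2, the cytokine IL11 was the only one of 8 past 2-fold, at 522.1 against 2221, 4.25-fold lower (median -0.03). For J3T-1 over J3T-2, EPHA2 was 2.07-fold higher, and IL11, EREG and PHLDA1 were 8.68-fold, 2.62-fold and 2.16-fold lower. EREG was under the limit in J3T-1 (186.7) and was measured only through J3T-2. The cyclin gene CCND1 was within 2-fold in all 3 comparisons (0.58 in the J3T-2 background, -0.31 in the J3T-1 background and 0.86 between the parents). A list of CREB pathway genes other than NR4A2 had no measured gene past 2-fold, with medians of -0.30 and -0.06 over 5 genes. CREB1 and CRTC2 in it are regulators and not targets, and were at 0.07 and -0.15 for J3T-2A over J3T-2. The targets CREM, PER1 and DUSP1 were at -0.99, -0.65 and -0.30 there. For J3T-1shA over J3T-1 these targets were at -0.06, -0.37 and 0.01. CREM came nearest, at 499.8 on the array labelled J3T-2A, against 992 on that of J3T-2 (-0.99).

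**Figure D4:**
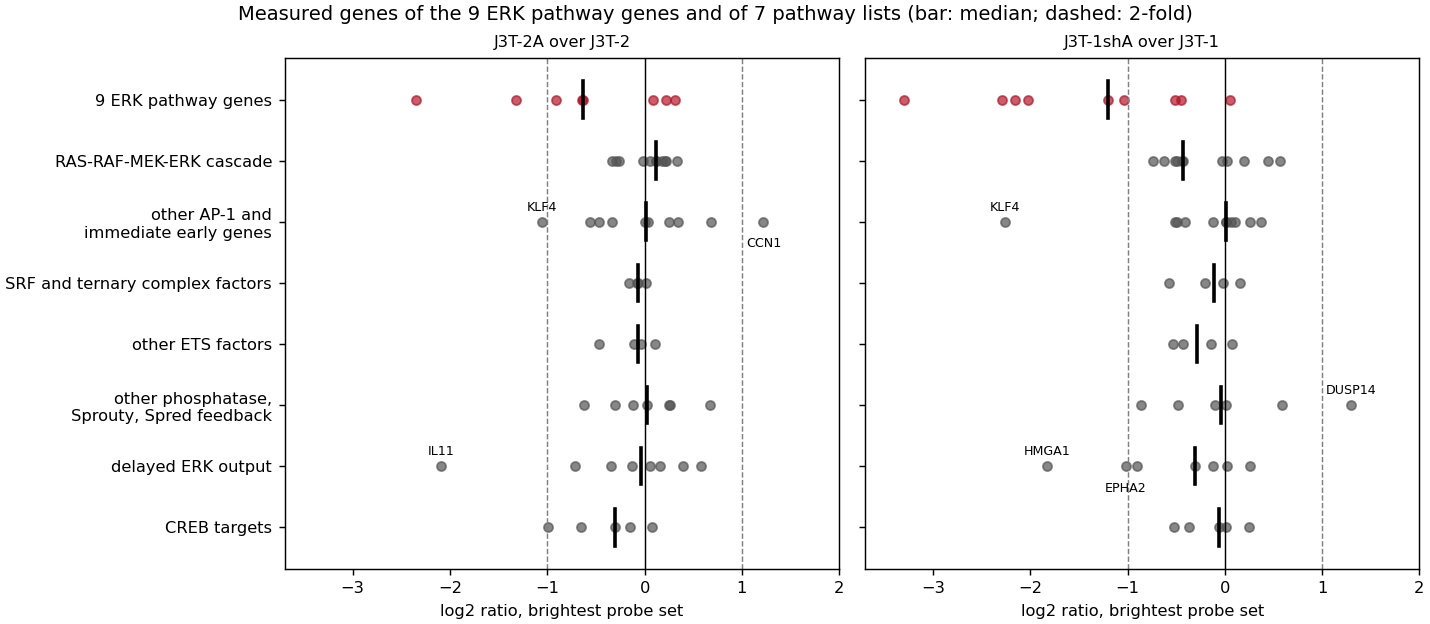
log2 ratios (x axis) of the measured ERK pathway genes and of the measured genes of 7 related lists (rows) for J3T-2A over J3T-2 (left) and J3T-1shA over J3T-1 (right), with a bar at each median, dashed lines at 2-fold and names for list genes past it. The list medians lie between -0.30 and 0.11 on the left and between -0.43 and 0.01 on the right, against -0.64 and -1.20 for the ERK pathway genes, which were chosen with these values known.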

How the data were processed

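RNA from 4 canine lines was measured on 1 Affymetrix Canine Genome 2.0 array each. The authors computed the deposited signal intensities with MAS 5.0 at default settings and global scaling; the deposited table holds 42924 probe sets without detection calls or p-values of change. The methods give a trimmed mean of 100 as target, whereas the deposited trimmed means, leaving out 2% at each end, were 495.8 to 496, so a limit of 50 was multiplied by 5. No genome build is named and no coordinates or sequences are given.

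Of 29254 probe sets with 1 symbol, 27680 matched RefSeq genes by Entrez identifier and 0 symbols changed. The brightest mean signal stood for each gene. Ratios used Python 3.11.15 and pandas 2.3.3, with no pseudocount. The calls were tested on simulated data with changes planted only in genes well over the limit. That check does not cover calls on dim signals. Named genes were the members, list genes past 2-fold, and the 3 nearest patterns per gene; list genes within 2-fold were named after their values were seen. Members and lists were chosen with earlier results of these data known. Alternatives were a limit of 500 or none, median centring, quantile normalization, a pseudocount, the median of probe sets and a fold of 1.5. The number of arrays limits all precision.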

Additional observations from a re-analysis of the deposited data

Results flagged for a closer look

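With each pair of lines turned the same way, the array labelled ANXA2 high over that labelled ANXA2 low, 3 genes named in the text were over 2-fold apart in opposite directions in the J3T-2 and J3T-1 backgrounds. For FOS the log2 ratio J3T-2A over J3T-2 was -1.32 and that of J3T-1 over J3T-1shA was 2.15. NR4A2 had -2.35 and 2.29, and KLF4 had -1.06 and 2.26, in the same order of comparisons. Each of the 3 was lower in the modified line than in its parent in both backgrounds. All 3 were under the limit on the J3T-1shA array and were measured in that background only through J3T-1. NR4A2 was under it on the J3T-2A array as well. The difference between the backgrounds was not tested, since each line has 1 array. Of 6563 genes measured in both comparisons, 69 (1.05%) were past 2-fold in opposite directions and 16 in the same direction. The second probe sets of FOS and KLF4 were under the limit on all arrays, that of FOS kept both directions within 2-fold, and that of KLF4 had 1.22 for J3T-2A over J3T-2.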

How the results depend on the processing

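No paired analysis was possible because each line has 1 array and no replicate number. With a fold of 1.5 in place of 2, 5 members were lower for J3T-2A over J3T-2 (12.1% of all genes were apart in either direction), 2 were higher and 2 lower for J3T-1 over J3T-2 (20.4%), and 2 were lower for J3T-2A over J3T-1 (16.2%). With each gene taken as the median of its probe sets, 1 member was lower for J3T-2A over J3T-2, since FOS was at -0.84, and FOS was at -0.92 for J3T-1shA over J3T-2A. With the pseudocount of 80, MYC (-0.91) and DUSP5 (-0.97) for J3T-1shA over J3T-1 and DUSP5 (-0.99) for J3T-1shA over J3T-2 came within 2-fold, on a scale that understates ratios of dim signals. The count of members lower for J3T-1shA over J3T-1 was 4 to 6 under all 7 alternatives. Median centring and quantile normalization moved no member's ratio past or within 2-fold, and no called ratio changed sign; the sign of DUSP5 for J3T-1 over J3T-2, at -0.02, did. With no limit, 19.0% to 22.4% of all 15115 genes were over 2-fold apart, against 3.79% to 9.7% with it, and 2874 against 260 genes for J3T-2A over J3T-2. A limit of 500 left 147 there. Delayed ERK targets for J3T-1shA over J3T-2 had a median of -1.46 (5 genes) at that limit, against -0.71 (8 genes) at 250.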

Other observations

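Over the 4 arrays, the genes whose log2 signals, centred on their own mean, lay nearest to those of the ERK pathway genes were looked up among 7240 others, by the root mean square difference. With 4 arrays such likeness is a description of these hybridizations alone. EGR1 was nearest to ITGA7 (0.15), MXD4 (0.30) and FLT1 (0.33). ITGA7, a laminin-binding integrin chain, had signals of 620.5 on the array labelled J3T-2A, 1187 on J3T-2, 120.7 on J3T-1shA and 1021 on J3T-1. FOS was nearest to SERINC2 (0.14), PROCR (0.15) and GALNT6 (0.19), and NR4A2 to ATL1 (0.26), A4GALT (0.35) and GALNT6 (0.39). PROCR, the endothelial protein C receptor gene, had 728.1, 1605, 221.1 and 882.3 in the same order. ETV1 was nearest to CD82, AMPH and CPT1C (0.10 to 0.16), and DUSP5 to ZNF608, CTSF and ST3GAL6 (0.07 to 0.09). FOSL1 (SLC38A3, CCNF and KIAA0319L), MYC (MBOAT1, DNMT3A and ZCCHC9), ETV5 (SLC39A9, AP4S1 and IL17RC) and DUSP6 (MOSMO, FUBP1 and HYAL1) had nearer neighbours, at 0.010 to 0.064, and narrower ranges. Among the ERK pathway genes themselves, MYC and DUSP6 (0.21) and FOS and ETV1 (0.27) were among the closest pairs, and EGR1 and FOS were 0.51 apart.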
